A study of Mus musculus with 2 samples.

Results

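The respiratory chain and ATP synthase genes were taken by symbol from the deposited gene table. The rule took protein-coding genes whose symbol starts with Ndufa, Ndufb, Ndufc, Ndufs, Ndufv, Uqcr, Cox4 to Cox8, Atp5 or mt-, with Sdha, Sdhb, Sdhc, Sdhd, Cyc1 and Cycs. It found 108 of 45318 genes. Of these, 86 are nuclear genes for subunits or for cytochrome c and 13 are mitochondrially encoded subunits. The other 9 encode no subunit. They are 8 assembly factors of complex I, whose symbols start with Ndufaf, and Atp5s.

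RNA was sequenced from mouse leukaemia cells of the C57Bl/6 strain driven by MLL/AF9, a fusion gene found in human acute myeloid leukaemia. GFP-positive cells had been sorted from the bone marrow of leukaemic mice given vehicle or brequinar, an inhibitor of dihydroorotate dehydrogenase. Each treatment had 1 library, 2 in all, so differences could not be set against a spread between replicates and carry no p-value. The sources used here do not give the dose, the duration, the age of the mice or how many mice each library came from.

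The respiratory chain lies in the inner mitochondrial membrane. Complex I oxidises NADH and complex II oxidises succinate, both passing electrons to ubiquinone. Complex III moves them on to cytochrome c, complex IV hands them to oxygen, and ATP synthase, called complex V, uses the resulting proton gradient. Most subunits are made from nuclear genes, but core subunits of complexes I, III, IV and V are encoded by mitochondrial DNA, which is transcribed into long precursors from both strands. Dihydroorotate dehydrogenase, the enzyme brequinar inhibits, sits in the same membrane and also gives its electrons to ubiquinone.

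The vehicle library held 47935476 and the brequinar library 47950714 reads counted on genes. Levels are counts scaled to the library size (CPM), and a pair of values always gives vehicle first and brequinar second. A gene counted as measured when its mean over both libraries was at least 1 CPM, which held for 11504 genes. Intervals are exact (Clopper-Pearson) at 95% and cover counting error only. A count of 0 allowed up to 0.0606 CPM in the vehicle and 0.0646 CPM in the brequinar library. In bulk RNA, fewer cells of a type and less RNA per cell cannot be told apart. All 7 blast genes checked were measured, with a sum of 7227 and 3194 CPM. Hoxa9 (238 and 231 CPM) and Meis1 (71.6 and 87.4 CPM) stood close to equality, Mpo (5912 and 979 CPM), Kit (180.3 and 76.5 CPM) and Cd34 (140.1 and 48.8 CPM) lower in the brequinar library, and Itgam (399 and 1234 CPM) and Ptprc (286 and 538 CPM) higher. The summed level of 9 genes of maturing neutrophils was 1402 and 23645 CPM, that of 11 erythroid genes 241 and 461 CPM, and that of 7 macrophage genes 595 and 765 CPM. At least 2-fold higher were 9 of 9 neutrophil genes (median log2 ratio 3.76), 9 of 10 measured erythroid genes (1.84) and 5 of 7 macrophage genes (2.99). Genes that differed less, Vcam1 (369.6 and 496 CPM) and Adgre1 (221 and 225 CPM), made most of the macrophage sum in both libraries. Tfrc (161 and 188 CPM) made most of the erythroid sum in the vehicle library only. No gene of these lists was at 0 in both libraries. For 4 B cell genes the sum was 29.9 and 14.9 CPM, and for 4 T cell genes 0.505 and 1.96 CPM. The part of these cells in the values below was not tested.

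Several mitochondrial genes have near-identical copies in the nuclear genome, where reads cannot be placed, so a copied and a less copied stretch are shown first. The stretches are bases 101 to 160 of each annotated transcript, 5′ to 3′, from GENCODE mouse release 21 (GRCm38). Capitals mark the bases that differ between a mitochondrial gene and its nuclear copy. mt-Co2 (chrM:7113-7172, plus strand) and the pseudogene Gm28661 (chr1:24615406-24615465, minus strand) differ at 0 of 60 bases. mt-Cytb (chrM:14245-14304, plus strand) and the pseudogene Gm11410 (chr4:80004089-80004148, plus strand) differ at 5 of 60 bases.
mt-Co2: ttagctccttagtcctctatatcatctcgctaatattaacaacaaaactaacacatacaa
Gm28661: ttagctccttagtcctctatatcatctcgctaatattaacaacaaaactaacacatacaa
mt-Cytb: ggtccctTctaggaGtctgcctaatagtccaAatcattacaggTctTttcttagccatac
Gm11410: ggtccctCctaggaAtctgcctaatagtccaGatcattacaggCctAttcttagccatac
A fragment that lies wholly in the first stretch fits both genes equally, whereas one from the mt-Cytb stretch does not.

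Nuclear subunit genes stood at nearly the same level in both libraries, and most mitochondrially encoded ones stood lower in the brequinar library. Of 80 measured nuclear genes, 65 (81.2%) had a log2 ratio of less than 0.32 in size. This held for 53.1% of all measured genes, which were not matched for level. The median log2 ratio of brequinar over vehicle of the nuclear genes was -0.02, beside 0.00 for all measured genes, and 37 were above 0 and 43 below. Of the 13 mitochondrially encoded genes, 12 were below 0, with a median of -0.43. The difference between these medians was 0.41, which library scaling cannot alter. Taken from summed counts instead, it was 0.21.

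At a threshold of 2-fold, 1 of 93 measured subunit genes was higher and 1 was lower, where 6.45% of all measured genes were higher and 4.40% lower. The higher gene was Cox7a1, and the lower gene was mt-Nd3, both of low counts. At the smaller threshold, a log2 ratio of 0.32 in size, 5 of the 80 nuclear genes were higher and 10 lower, where 23.2% of all measured genes were higher and 23.7% lower. At that threshold 1 of the 13 mitochondrial genes was higher and 9 were lower (69.2%). Scaling by total counts alone shifted every ratio by -0.09, which left 27 nuclear genes above 0 and 53 below, and 59.0% of all genes below.

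**Figure D1:**
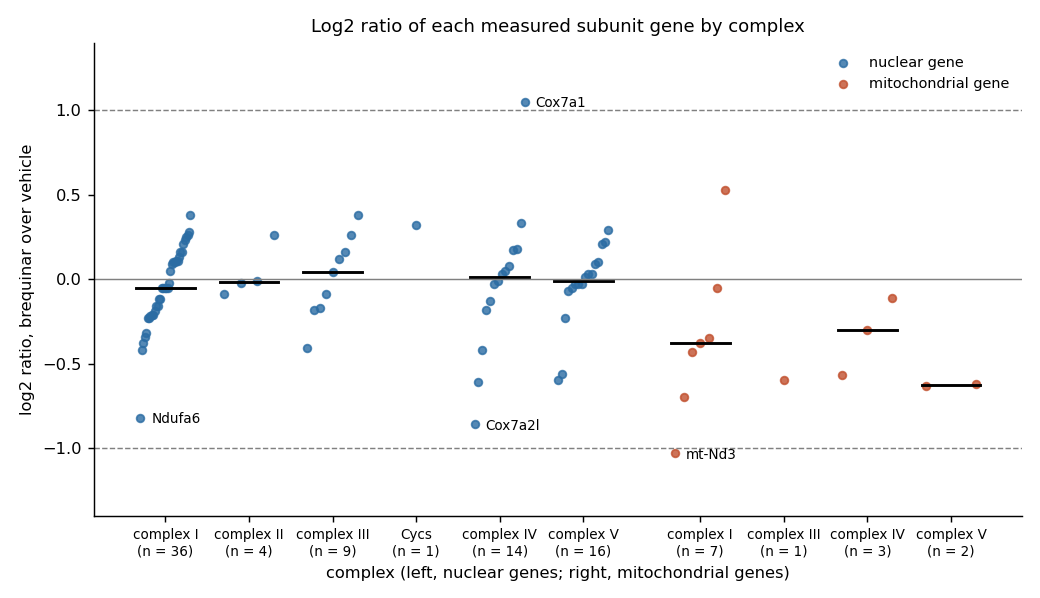
Log2 ratio (brequinar over vehicle, vertical axis) of each measured subunit gene, by complex, with nuclear genes on the left in blue and mitochondrial genes on the right in red. Each point is 1 gene, black bars are medians and dashed lines mark 2-fold. The nuclear medians lie between -0.05 and 0.04, and 12 of 13 mitochondrial points lie below 0.

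**Figure D2:**
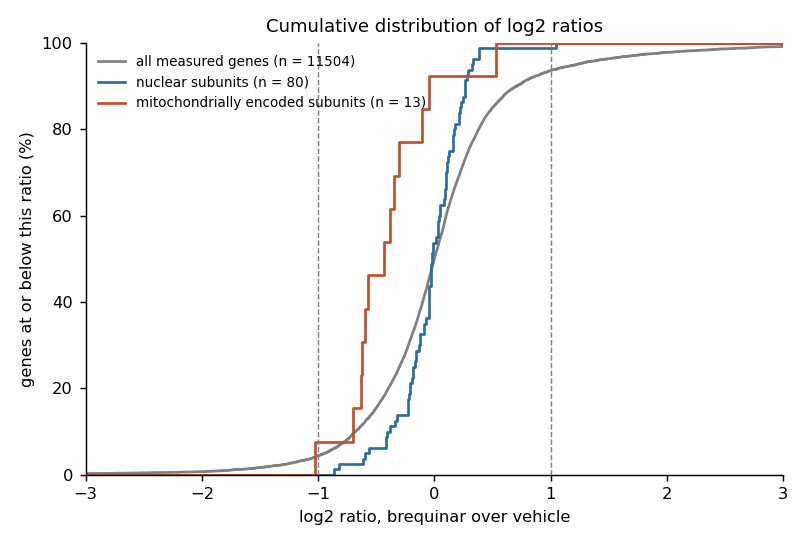
Share of genes (percent, vertical axis) at or below each log2 ratio of brequinar over vehicle (horizontal axis, shown from -3 to 3) for all 11504 measured genes, 80 nuclear and 13 mitochondrially encoded subunits. Dashed lines mark 2-fold. The nuclear curve is steeper than that of all genes around 0, and the mitochondrial curve lies to the left.

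The spread among the nuclear genes was small beside that of the transcriptome. No set of genes matched for level was compared, although the filter admits genes down to a mean of 1 CPM. The SD of the log2 ratio was 0.28 over the 80 genes and 0.76 over all measured genes, and the middle 50% of the nuclear genes lay between -0.18 and 0.13. Summed over all 86, the level was 12172 and 12088 CPM, a ratio of 1.01, higher in the vehicle library. The 13 mitochondrial genes summed to 15218 and 13066 CPM, which was 1.16-fold lower in the brequinar library (interval 1.16 to 1.17). They made 55.6% of all subunit reads in the vehicle library (interval 55.5 to 55.6) and 51.9% in the brequinar library (interval 51.9 to 52.0). That share is computed within each library and is free of scaling.

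Across genes, levels were compared per kilobase of the annotated main transcript. The median nuclear gene stood at 143 CPM per kb in the vehicle and 133 in the brequinar library. Complex medians in the vehicle library were 95.1 CPM per kb for complex I, 88.6 for II, 215 for III, 238 for IV and 284 for V. In the brequinar library they were 87.0, 94.7, 161, 212 and 284 CPM per kb. The complex III median was in both libraries that of Uqcr11, while the sum over its 9 genes was 1353 and 1406 CPM. The most abundant nuclear gene per kb was Atp5b, the catalytic beta subunit of ATP synthase (628 and 607 CPM per kb). mt-Co1, the catalytic core subunit of complex IV, reached 5011 and 4649.9 CPM per kb.

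**Figure D3:**
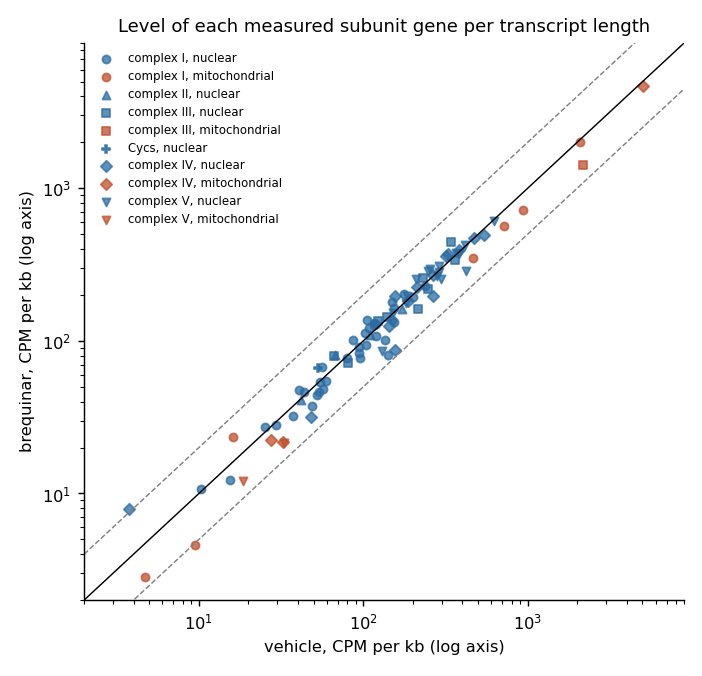
Level of each measured subunit gene per kilobase of transcript in the vehicle library (horizontal, log axis) and the brequinar library (vertical, log axis), in CPM per kb. Symbols give the complex and colours the genome. The solid line marks equal levels and the dashed lines 2-fold. Blue points lie along the line of equality and most red points lie below it.

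Complex I held 36 nuclear genes, all measured, with a median log2 ratio of -0.05. None passed 2-fold, and past 0.32 on the log2 scale 1 was higher and 4 were lower, where 23.2% and 23.7% of all measured genes were. The parts of complex I had different medians. The 10 genes of the NADH-oxidising module had a median of -0.21, with 8 below 0, and the 6 of the ubiquinone-binding module a median of -0.09, with 5 below 0. The 19 nuclear genes of the membrane arm had a median of 0.09, with 11 above 0 and 8 below. Scaling by total counts alone shifted every ratio by -0.09, as much as this median, so the direction of the membrane arm depends on the scaling. Summed levels were 824 and 743 CPM for the NADH module and 1545 and 1604 CPM for the membrane arm.

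The lowest ratio among the nuclear genes of complex I was that of Ndufa6, an accessory subunit of the hydrophilic arm (ENSMUSG00000022450.5, chr15:82350140-82354322, minus strand). It had 4148 and 2204 counts, or 83.8 and 47.4 CPM, and was 1.77-fold lower in the brequinar library (interval 1.68 to 1.86). None of its 101-base windows was found in another annotated transcript. Ndufa7, of the same arm, followed with 71.1 and 53.2 CPM, and Ndufa10, of the membrane arm, with 98.8 and 75.7 CPM. On the other side stood Ndufa8, a membrane arm subunit with twin cysteine motifs, with 4498 and 5483 counts, or 90.9 and 118 CPM, at 1.30-fold. Ndufb10, also of the membrane arm, had 109 and 133 CPM, and Ndufv2, an iron-sulphur subunit of the NADH module, 95.2 and 114 CPM. Within complex I Ndufa6 stood alone, since the next lowest nuclear gene of this complex, Ndufa7, had a log2 ratio of -0.42 against -0.82.

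Complex II has 4 nuclear and no mitochondrial subunits. Sdha, the flavoprotein that oxidises succinate, stood at 319 and 317 CPM. Sdhb, the iron-sulphur subunit, stood at 76.7 and 91.6 CPM, a ratio of 1.19. The membrane anchors followed Sdha more closely, with Sdhc at 132 and 130.5 CPM and Sdhd at 212 and 199 CPM. None of the 4 reached a log2 ratio of 0.32 in size, and neither did 53.1% of all measured genes. The 4 summed to 740.5 and 738 CPM.

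Complex III had 9 nuclear genes, all measured, with a median log2 ratio of 0.04 that turned to -0.05 with total-count scaling. Past 0.32 on the log2 scale 1 gene was higher and 1 lower, where 23.2% and 23.7% of all measured genes were. Uqcrb, a small subunit, had the highest ratio of this complex, at 183 and 238 CPM (1.30-fold, interval 1.26 to 1.34). Cyc1, the haem-bearing cytochrome c1, stood at 101 and 121 CPM, and the small subunit gene Uqcr10 at 101 and 112 CPM. The lowest nuclear gene of this complex was Uqcr11, another small subunit, at 95.7 and 71.8 CPM. Uqcrfs1, the Rieske iron-sulphur protein, stood at 110.1 and 96.9 CPM, and Uqcrq at 100.2 and 88.8 CPM. Of the windows of Uqcrb, 15.4% were also found in other annotated genes, so its level is less certain than those of Cyc1 and Uqcr11, which had none.

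Cycs, which encodes cytochrome c, the mobile carrier between complexes III and IV and an activator of apoptosis once released, had 8235 and 9676 counts, or 166 and 208 CPM. The log2 ratio was 0.32. Of its windows 24.6% recur in processed pseudogenes.

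Complex IV had 14 of 20 nuclear genes measured, with a median log2 ratio of 0.01 that turned to -0.08 with total-count scaling. The 11 ubiquitous subunits had a median of 0.03 and a summed level of 2106 and 2115 CPM. Cox5a, a matrix-side subunit, stood at 101 and 127 CPM, with 12.8% of its exonic bases overlapped by Gm26631 on the opposite strand. Ndufa4, which was first assigned to complex I, stood at 200.1 and 227 CPM. The lowest of these ubiquitous genes was Cox8a, at 145 and 109 CPM, a 1.34-fold difference (interval 1.29 to 1.38). The larger differences of this complex lay in genes for alternative isoforms.

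Cox7a2l, which encodes an alternative isoform of the Cox7a subunit, had the lowest ratio of all measured nuclear subunit genes. It had 8366 and 4338 counts, or 169 and 93.4 CPM, and was 1.81-fold lower in the brequinar library (interval 1.75 to 1.88). Whether the Cox7a2l product tethers complex III to complex IV in supercomplexes in this mouse strain was not tested. The gene (ENSMUSG00000024248.10) lies at chr17:83501918-83517330 on the minus strand, and 11.6% of its windows recur in the pseudogene Gm6969. The ubiquitous Cox7a2 stood at 209.9 and 237 CPM and the heart and muscle isoform Cox7a1 at 1.48 and 3.10 CPM. Among reads of these 3 genes, Cox7a2l held 44.4% (interval 43.7 to 45.2) in the vehicle and 28.0% (interval 27.3 to 28.7) in the brequinar library. Per transcript length its share was 32.8% and 19.1%.

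Cox7a1 was the one nuclear member past 2-fold, at 2.10-fold (interval 1.57 to 2.82), with 73 and 144 counts. It (ENSMUSG00000074218.2, chr7:30184144-30186078, plus strand) did not reach 2-fold with total-count scaling. Its share of Cox7a1 and Cox7a2 reads was 0.698% (interval 0.548 to 0.877) and 1.29% (interval 1.09 to 1.52). Erythroid and neutrophil genes were also higher in this library, and their part in this low value was not tested. Cox6b2, known from testis, stood at 22.4 and 14.7 CPM. It made 8.72% of Cox6b reads in the vehicle library (interval 8.23 to 9.22) and 5.71% in the brequinar library (interval 5.30 to 6.14), and Cox6b1 stood at 235 and 243 CPM.

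Isoforms of muscle, lung and testis were otherwise near or at the floor. Cox4i2, an oxygen-regulated isoform of lung, had 8 and 26 counts (0.162 and 0.560 CPM), beside 404 and 369.7 CPM for Cox4i1. Cox6a2, of heart and muscle, had 8 and 12 counts beside 122 and 129 CPM for Cox6a1. Cox8b, Cox8c, Cox7b2 and Ndufa4l2 had no count in either library. The measured gene nearest the filter was mt-Nd4l, with a mean of 1.12 CPM, and the nearest one outside was Cox4i2, with a mean of 0.361 CPM.

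**Figure D4:**
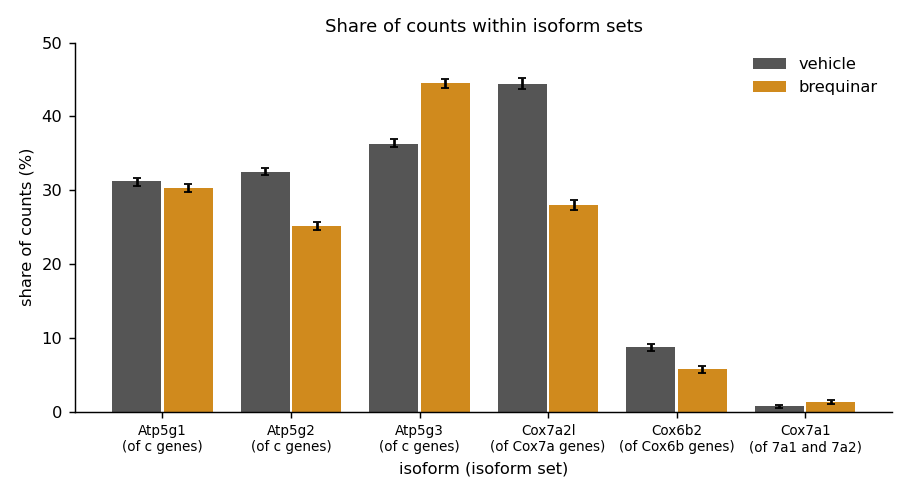
Share of counts (percent, vertical axis) that each isoform gene holds within its isoform set, in the vehicle (grey) and brequinar (orange) library. Error bars are exact 95% intervals for counting error. Cox7a2l stands at 44.4% and 28.0% of Cox7a counts, and Atp5g3 stands at 36.3% and 44.5% of subunit c counts.

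Complex V had 16 nuclear genes, all measured, with a median log2 ratio of -0.01. Past 0.32 on the log2 scale none was higher and 2 were lower, where 23.2% and 23.7% of all measured genes were. Atp5a1, the alpha subunit of the catalytic head, stood at 941 and 923 CPM, and Atp5b, the beta subunit, at 1204 and 1162 CPM. Atp5d, the delta subunit of the central stalk, had the lowest nuclear ratio of this complex. It stood at 121 and 79.6 CPM, a 1.52-fold difference (interval 1.46 to 1.58). Its neighbours in the stalk, Atp5c1 (gamma, 325 and 309 CPM) and Atp5e (epsilon, 175 and 179 CPM), differed little. The 4 genes of the peripheral stalk summed to 916 and 1022 CPM, led by Atp5f1, which encodes subunit b (335 and 409 CPM), and Atp5j, coupling factor 6 (199.9 and 231 CPM). Of the exonic bases of these genes 8.21% and 12.7% overlap genes on the opposite strand. Atp5k, the small membrane subunit e, had a log2 ratio of 0.22.

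The proton-carrying ring of subunit c is encoded by 3 genes whose mature proteins are the same. Atp5g1 stood at 177 and 151 CPM, Atp5g2 at 185 and 126 CPM and Atp5g3 at 207 and 222 CPM. Atp5g2 was 1.47-fold lower in the brequinar library (interval 1.42 to 1.52), and its share of subunit c reads was 32.5% and 25.2%. The share of Atp5g3 was 36.3% and 44.5%, and that of Atp5g1 31.2% and 30.3%. All windows of the Atp5g2 transcript and 57.3% of those of Atp5g1 recur in pseudogenes, against none of Atp5g3, so the split between these genes is uncertain.

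The mitochondrially encoded genes differed widely in counts and in how far they are copied in the nuclear genome. Of the 101-base windows, 97.6% to 99.9% in mt-Co2, mt-Atp6, mt-Co3, mt-Nd3 and mt-Nd4l recurred in annotated pseudogenes on chromosome 1 or 2. These 5 genes held 0.404% of mitochondrial subunit reads in the vehicle and 0.330% in the brequinar library. In the vehicle library they stood at 4.70 (mt-Nd4l) to 32.4 (mt-Co3) CPM per kb, levels that count placed reads only and are uncertain as abundances. mt-Atp8 lies between mt-Co2 and mt-Atp6 and had 334 and 202 counts, although none of its windows was found in an annotated gene. Of the windows of mt-Nd4, 60.7% recurred, of mt-Co1 30.7%, of mt-Nd2 3.09% and of mt-Nd1, mt-Nd5, mt-Nd6 and mt-Cytb none. Multimapping reads were 7.39% and 6.92% of all reads and are in no gene's count.

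Among the genes with few copies, the difference was uneven along the genome. mt-Nd1, a core subunit of the membrane arm of complex I and the first mRNA after the ribosomal RNAs, stood at 2003 and 1934 CPM, 1.04-fold lower (interval 1.03 to 1.05). mt-Co1 stood at 7743 and 7184 CPM, 1.08-fold lower (interval 1.07 to 1.08). These pairs were the closest to equality. The proton-pumping complex I subunits mt-Nd2 (967 and 745 CPM) and mt-Nd5 (1310.3 and 1029 CPM) were 1.30-fold and 1.27-fold lower. mt-Cytb, cytochrome b of complex III and the last heavy-strand mRNA, had 122411 and 75991 counts, or 2474 and 1636 CPM, and was 1.51-fold lower. Over these 5 heavy-strand genes, chosen after seeing the data, the median log2 ratio was -0.35. It was -0.03 for the 62 measured nuclear genes without copied windows, a stricter rule than the under 35% used for the 5. The 5 leave out mt-Nd6 (log2 ratio 0.53) and mt-Atp8 (-0.63), for which no copied window was found.

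The shares within the mitochondrial mRNAs differed too. mt-Co1 held 50.9% of mitochondrial subunit reads in the vehicle library (interval 50.8 to 51.0) and 55.0% in the brequinar library (interval 54.9 to 55.1). mt-Cytb held 16.3% (interval 16.2 to 16.3) and 12.5% (interval 12.4 to 12.6). The log2 ratio of the summed counts of all 13 genes, in which mt-Co1 weighs most, was -0.22, beside the median over genes of -0.43.

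The more copied genes, with the neighbouring mt-Atp8, were all lower in the brequinar library. The 6 genes with 35% or more copied windows had a median log2 ratio of -0.59, beside -0.35 for the 5 less copied heavy-strand genes. Their ranges overlapped, at -1.03 to -0.30 and -0.60 to -0.05. Most of the 6 had low counts. mt-Co2 stood at 18.8 and 15.3 CPM, mt-Co3 at 25.4 and 17.1 CPM, and both belong to the catalytic core of complex IV. The ATP synthase subunits mt-Atp6 and mt-Atp8 had 623 and 381 counts and 334 and 202 counts. mt-Nd4, a proton-pumping subunit of complex I, stood at 645 and 478 CPM. mt-Nd3, a small complex I subunit, had 163 and 74 counts (3.29 and 1.59 CPM), 2.07-fold lower with an interval of 1.56 to 2.76, and mt-Nd4l had 69 and 39 counts. Their annotated nuclear copies had counts too, all lower in the brequinar library. Gm28437, the copy of mt-Co3, had 1095 and 720 counts, and Gm10925, the copy of mt-Atp6, 1483 and 985. The copies of mt-Co2 were Gm28661, with 649 and 475 counts, and Gm13341, with 705 and 538. Gm28438, the copy of mt-Nd3, had 78 and 47 counts. Gm10222, that of mt-Nd4l, had 36 and 30, a 1.13-fold difference whose interval (0.675 to 1.89) spans equality. Gm28439, that of mt-Nd4, had 195 and 103. The counts of the last are far under those of mt-Nd4 itself.

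mt-Nd6 was the one mitochondrially encoded subunit with a higher level in the brequinar library. It is also the one encoded on the other strand, at chrM:13552-14070 (minus). It had 414 and 561 counts, or 8.37 and 12.1 CPM, a 1.44-fold difference (interval 1.27 to 1.64). Of its exonic bases 2.70% overlap mt-Nd5 on the opposite strand, which had 64838 and 47803 counts. No source used here states the strand setting of the counting, so reads of this and the other antisense overlaps cannot be told apart. The libraries were poly(A)-selected, and the part of this selection in the few mt-Nd6 counts was not tested.

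**Figure D5:**
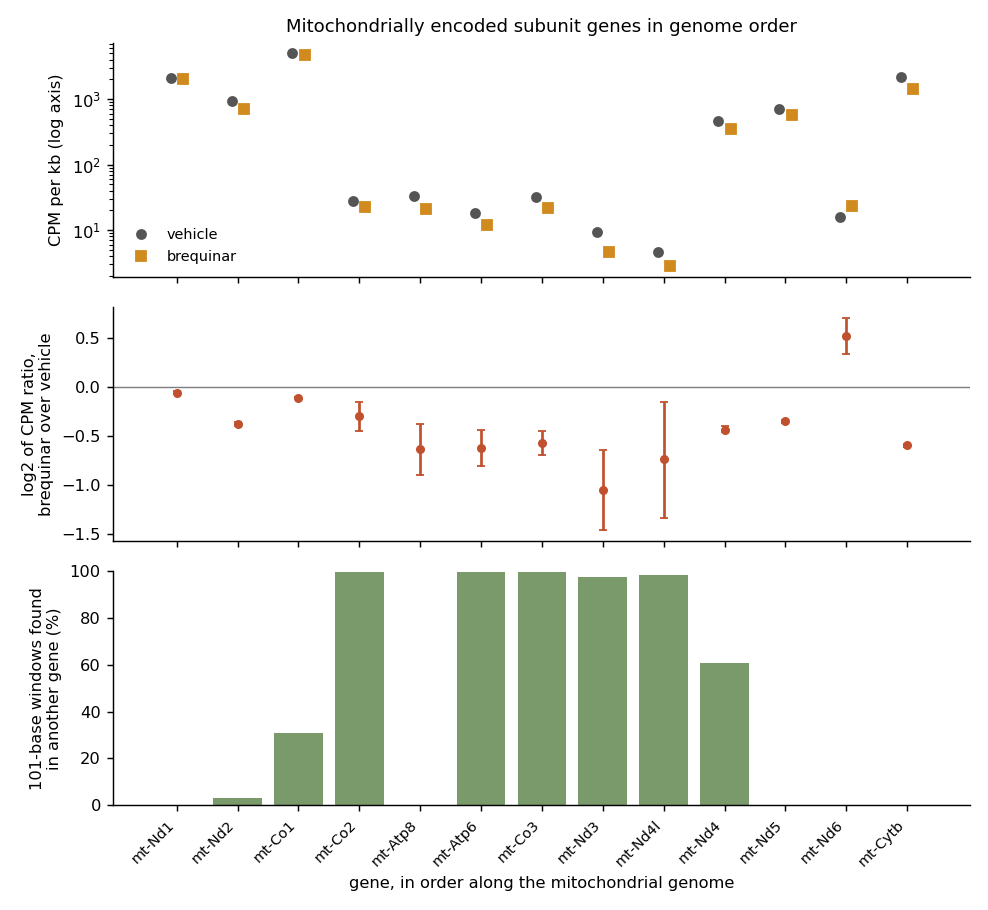
The 13 mitochondrially encoded subunit genes in their order along the genome. From top to bottom, the panels give the level in each library (CPM per kb, log axis), the log2 of the CPM ratio of brequinar over vehicle with exact 95% counting intervals, and the percentage of 101-base windows also found in another annotated gene. Genes from mt-Co2 to mt-Nd4l, and mt-Nd6, lie at or under 33.1 CPM per kb and the others at or above 347, and mt-Nd6 has the single ratio above 0.

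Genes that build the complexes or serve mitochondrial DNA were read from lists. Of 51 assembly factors, 50 were measured with a median log2 ratio of -0.05. None passed 2-fold. Past 0.32 on the log2 scale 2 were higher and 8 lower, where 23.2% of all measured genes were higher and 23.7% lower. Lyrm7 (2.36 and 1.31 CPM), which helps to insert the Rieske protein into complex III, and Uqcc3 (36.1 and 22.9 CPM), another factor of complex III, were the lowest. Cox17, a copper chaperone (1.29 and 1.89 CPM), and Ndufaf5, an assembly factor of complex I (644 and 758 counts), were the highest. The 8 Ndufaf genes had a median of 0.03 and a sum of 157 and 162 CPM, and Atp5s stood at 8.31 and 5.08 CPM.

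All 30 genes for mitochondrial transcription, RNA processing and DNA maintenance were measured, with a median log2 ratio of -0.09. Past 0.32 on the log2 scale none was higher and 9 of 30 were lower, where 23.7% of all measured genes were lower. The lowest were Top1mt, the mitochondrial topoisomerase (20.7 and 12.5 CPM), and Fastkd1, an RNA-binding protein (14.5 and 9.43 CPM). The highest were Mtpap, the mitochondrial poly(A) polymerase (36.8 and 45.3 CPM), and Mterf4 (15.7 and 18.2 CPM). Polrmt, the mitochondrial RNA polymerase (28.0 and 19.5 CPM), and Lrpprc, which stabilises mitochondrial mRNAs (102 and 71.0 CPM), are named here after their values were seen.

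Of 12 nuclear regulators of respiratory genes, 9 were measured, with a median log2 ratio of 0.16. None passed 2-fold. Past 0.32 on the log2 scale 2 were higher, Sp1 (150.4 and 191 CPM) and Gabpb1 (46.5 and 58.4 CPM), and none was lower. Of all measured genes 23.2% were higher and 23.7% lower at this threshold. Chchd2 (191 and 156 CPM) and Pprc1 (40.5 and 38.4 CPM) had the lowest ratios. The coactivators Ppargc1a and Ppargc1b and the muscle gene Perm1 were under the filter, Ppargc1a at 0.283 and 0.172 CPM.

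A list of other genes for passing electrons to ubiquinone had 9 measured, with a median log2 ratio of -0.01. It includes Etfa and Etfb, whose protein does so only through the enzyme encoded by Etfdh. Of the 9 genes, 1 was at least 2-fold higher and none was 2-fold lower, where 6.45% and 4.40% of all measured genes were. The higher gene was Sqor, sulphide quinone oxidoreductase, at 44.3 and 103 CPM. Aifm2 stood at 21.8 and 33.6 CPM. Chdh, choline dehydrogenase, at 85.2 and 47.2 CPM, and Prodh, proline dehydrogenase, at 37.7 and 22.6 CPM, were the lowest. Dhodh stood at 37.5 and 26.3 CPM.

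Promoter sequences were searched for what the nuclear genes share. NRF1, GABP (an ETS factor) and YY1 are known activators of respiratory genes. RefSeq promoters (GRCm38.p6, 250 bases before to 50 after the start) were matched by symbol for 75 of 95 nuclear genes, of which 66 are measured subunit genes. The NRF1 core letters GCGCANGC, on either strand, were in 24 of these 66 (36.4%), against 11.2% of 27025 genes in the table. The ETS letters CCGGAAG were in 16 (24.2%) against 9.93%, and the YY1 letters AAGATGGCG in 7 (10.6%) against 1.64%. The 66 genes are all measured, whereas the 27025 include genes not measured here, so these shares compare unlike sets. Matches of different factors overlapped in 0 of the 66 genes.

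Genes with and without the NRF1 letters had similar ratios, with medians of 0.04 and -0.05, and for the ETS letters the medians were 0.04 and -0.03. Both the lowest and the highest ratio among nuclear genes of complex I belonged to genes with NRF1 letters, Ndufa6 (-0.82) and Ndufa8 (0.38). A stretch of each is shown, 5′ to 3′ on the gene's strand, with 1 match to the NRF1 letters in capitals. That of Ndufa6 is at chr15:82354345-82354394 and that of Ndufa8 at chr2:36049339-36049388, both on the minus strand.
Ndufa6: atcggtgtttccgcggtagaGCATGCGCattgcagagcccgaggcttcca
Ndufa8: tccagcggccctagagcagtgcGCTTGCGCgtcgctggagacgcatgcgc
The gene Nrf1 itself stood at 54.3 and 59.1 CPM. A match of letters describes the sequence and does not show binding in these cells.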

How the data were processed

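Poly(A)-selected, strand-preserving libraries were read as paired ends of 101 bases, per the labels' protocols. The authors deposited raw whole-number counts per gene, and the submitters' processing notes name STAR 2.4.2a, Picard 1.99 and 2.2.4 and mm10. No source used here states the counting program, the strand setting or the annotation release. The 4 rows that name no gene held 21.6% and 20.2% of reads and were left out. Symbols came from GENCODE mouse release 21 (44671 of 45318 identifiers matched).

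Library scaling used TMM factors (1.03 and 0.969, from edgeR 4.0.16 in R 4.3.3), and a prior count of 2 was added before log2 ratios. The ratio method was tested on simulated data. No test was run between treatments. A gene was called at 2-fold or more, and a log2 ratio of 0.32 in size was used beside it. Lengths are those of the main annotated protein-coding transcript. A window counted as copied when its 101 bases occurred exactly, on either strand, in a transcript of a gene that does not overlap it.

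Members and lists were chosen with earlier results of these data known. Named genes are all 13 mitochondrial mRNAs, complex II and Cycs, the 3 highest and lowest nuclear ratios of the other complexes, members past 2-fold, isoform sets, Dhodh, and the 2 highest and lowest of each list. Other software was Python 3.11.15, numpy 2.4.6, pandas 2.3.3, scipy 1.17.1 and matplotlib 3.10.9. DESeq2 1.42.0 served for alternative size factors. Promoters were searched for core motif letters, taken after a first search with longer forms of the NRF1 and YY1 motifs.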

Additional observations from a re-analysis of the deposited data

Results flagged for a closer look

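The mitochondrial ribosomal RNA rows lie outside the protein-coding genes compared above and stood higher in the brequinar than in the vehicle library. mt-Rnr1 had 10853 and 20177 counts, a 1.98-fold difference (interval 1.93 to 2.03). mt-Rnr2 had 14109 and 21520 counts, a 1.62-fold difference (interval 1.59 to 1.66). Both lie on the heavy strand ahead of mt-Nd1, which stood at 2003 and 1934 CPM. The part of poly(A) selection in these ribosomal RNA counts was not tested.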

How the results depend on the processing

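With 1 library per group, no library could be left out, and no difference has an error between animals. No paired analysis was possible because each group holds 1 library and no test was made. DESeq2 size factors, upper quartile scaling and prior counts of 0.5 and 5 moved no median by more than the half-width of its genes' counting intervals, though the median of complex IV turned to -0.02 with the upper quartile. Of 48 values of named members, 38 moved by more than their counting interval with each total-count scaling and 9 with the upper quartile. With total counts alone the medians were -0.11 for nuclear subunits and -0.14, -0.11, -0.05, -0.08 and -0.10 for nuclear complexes I to V. With totals that leave out mitochondrial genes and the 50 most abundant genes they were -0.10 and -0.13, -0.10, -0.04, -0.07 and -0.09. Under both of these scalings 0 members were at least 2-fold higher. Taking summed counts in place of the median gave -0.22 for mitochondrial genes, 0.21 for the difference between nuclear and mitochondrial genes, and -0.05 for complex IV, and taking the mean gave 0.03 for complex II. Limiting nuclear genes to those with no copied windows and mitochondrial genes to 5 heavy-strand genes over 500 bases with under 35% copied windows, chosen after seeing the data, gave a difference of 0.32. That leaves out mt-Nd6 and mt-Atp8, which had no window copied in an annotated gene. Copies outside annotated genes were not searched.

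A filter of 5 CPM left 0 members higher and 0 lower, with 457 and 230 of all genes called. Without a filter 2 members were higher, Cox7a1 and Cox4i2, with 2470 and 2074 genes called. At 1.5-fold 9 members were lower, with 1456 and 1463 genes called, and at a log2 ratio of 0.32 in size 6 were higher and 19 lower, with 2669 and 2726 genes called. These counts differ by construction of the filter and the threshold. The cause of the other shifts was not tested.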
